A study of Mus musculus with 3 samples.

Results

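Spp1 encodes osteopontin, and it is followed here through 3 single-cell libraries of mouse liver, as 1 of the 19091 genes counted in them. The gene was chosen by its own measured values in these libraries, so its levels are given as a description and without a test. The libraries came from adult C57BL/6 livers. The control library came from sham-operated mice killed after 1 day. The day 1 p.i. (post injury) and day 7 p.i. libraries came from livers given irreversible electroporation, a non-thermal injury in which strong electric pulses kill the cells between the electrodes, here 8 pulses of 50 ms with 1 s between pulses, at 75 V per the labels, while the study's methods give another voltage. The electroporated area, or the matching uninjured area of the controls, was taken with a 4 mm punch, digested with dispase, collagenase and DNase, freed of red blood cells and run on Drop-seq, a droplet method that tags each captured RNA molecule with a unique molecular identifier (UMI). Each library pooled several livers and was the only library of its condition, so differences between libraries carry no replicate error, and day 7 p.i. has no sham control of its own age.

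Osteopontin is a secreted, heavily phosphorylated glycoprotein of the extracellular matrix. It binds the hyaluronan receptor CD44 and several integrins, and thrombin and matrix metalloproteinases cleave it into fragments with other binding properties. In healthy liver it is known mainly as a product of cholangiocytes, the epithelial cells of the bile ducts, and in injured tissue it is also made by macrophages.

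A minimum of 200 detected genes per barcode left 10386 of 15704 barcodes in the control library, 9253 of 18161 at day 1 p.i. and 5624 of 12466 at day 7 p.i., with a median of 595, 509 and 456.5 UMIs. The labels put an estimated 1000 cells behind the cDNA of each library, fewer than the barcodes kept, while the study states a far larger number of cells. The number of cells is thus not settled, and a barcode is not taken as a cell here. Class names used below, such as macrophages, stand for the barcodes assigned to that class. Of the libraries, that of day 7 p.i. stood apart in the share of mitochondrial UMIs, which was 4.10% against 20.5% in the control and 21.7% at day 1 p.i., and in reads per UMI, which were 4.99 against 3.45 and 3.64. Hepatocyte transcripts took 3.26% of UMIs at day 1 p.i. but 0.197% in the control and 0.0417% at day 7 p.i. Of the kept barcodes, 192 in the control, 462 at day 1 p.i. and 339 at day 7 p.i. had a sequence that also occurred in another library. Barcodes were assigned to cell classes by marker genes, with Spp1 in none of the marker lists, and 2816, 2523 and 1661 barcodes met no class. Levels were given as CPM, the UMIs of the gene divided by all UMIs of the class and scaled to 1000000 UMIs. Every interval is an exact 95% interval that covers counting error only, since neither barcodes nor UMIs are replicates of a condition.

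The 250 bases before the annotated start of Spp1 are shown because 2 sequence motifs in them belong to factor families followed further on. In RefSeq's annotation of GRCm38.p6 the window is chr5:104434861-104435110 on the + strand, directly upstream of the gene, which runs from 104435111 to 104441053. In capitals are the RUNX core ACCACA and the Ets core GGAAGT.
Spp1 promoter: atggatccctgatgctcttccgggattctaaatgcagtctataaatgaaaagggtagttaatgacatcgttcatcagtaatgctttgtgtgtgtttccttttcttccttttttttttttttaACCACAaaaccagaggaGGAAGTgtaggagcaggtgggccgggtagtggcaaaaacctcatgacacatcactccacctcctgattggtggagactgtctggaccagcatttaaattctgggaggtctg
The RUNX core began 128 bases and the Ets core 111 bases before the start. Searched on both strands, the RUNX core occurred in 14.0% and the Ets core in 19.7% of 32851 promoter windows of that length. The AP-1 site TGANTCA, found in 6.75% of promoters, and the vitamin D receptor half-sites AGGTCA and GGTTCA, found in 14.0% and 8.85%, had no match in these letters.

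Spp1 was a prominent transcript of the day 7 p.i. library. Over all kept barcodes it was at 603 CPM in the control (interval 586 to 620, 4830 UMIs), 711 CPM at day 1 p.i. (690 to 733, 4344 UMIs) and 4314 CPM at day 7 p.i. (4241 to 4388, 13196 UMIs). The level at day 7 p.i. was 7.16 times that of the control (6.92 to 7.40), and 143 of the 10227 genes with at least 50 UMIs in both libraries together had a higher ratio, the median gene standing at 0.862. At day 1 p.i. the ratio was 1.18 (1.13 to 1.23), with a median gene at 1.03 and 4183 of 11357 genes higher. This small difference rested on few barcodes: the ratio was 0.963 without the 10 barcodes richest in Spp1 in each library, and 1.00 without the deepest 5% of barcodes. The share of kept barcodes with at least 1 Spp1 UMI was 9.27%, 10.5% and 43.3% in the control, at day 1 p.i. and at day 7 p.i. With each barcode thinned to 300 UMIs, it was 5.62%, 6.47% and 36.3%.

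The order of the classes changed between libraries. In the control, cholangiocyte-gated barcodes stood highest at 11285 CPM and macrophage-gated barcodes next at 1061 CPM. Below them came the neutrophil gate at 297 CPM (216 to 399), the hepatocyte gate at 215 CPM (117 to 360) and the mesothelial gate with 8 UMIs, whose intervals overlapped. The monocyte gate followed at 115 CPM (94.2 to 139), the mesenchymal gate at 87.1 CPM (62.5 to 118), the endothelial gate at 57.5 CPM (43.3 to 74.8) and the lymphoid gate at 45.5 CPM (27.8 to 70.3). Neighbours in this order overlapped throughout from the neutrophil gate down. In the day 1 p.i. library the cholangiocyte gate was again highest, at 17601 CPM, and the next 4 (neutrophil at 366, monocyte at 327, endothelial at 306 and macrophage at 289 CPM) did not differ beyond their intervals. The lymphoid gate there, at 134 CPM, overlapped the neutrophil and monocyte gates in its interval, and the hepatocyte gate was at 63.1 CPM. As a ratio, the monocyte gate was at 2.43 times the lymphoid gate there (1.24 to 4.76). In the day 7 p.i. library the cholangiocyte gate at 22105 CPM led the macrophage gate at 6216, the neutrophil gate at 3599 (3462 to 3741), the monocyte gate at 3328 (3204 to 3457), the lymphoid gate at 689 (465 to 983) and the endothelial gate at 361 CPM. The monocyte gate was at 0.925 times the neutrophil gate there (0.876 to 0.976), and the endothelial gate at 0.524 times the lymphoid gate (0.267 to 0.993). Barcodes that met no class held 369, 937 and 4567 CPM. Dendritic-gated barcodes held 1, 4 and 2 Spp1 UMIs, and the mesenchymal gate at day 7 p.i., with 4 barcodes, held 0. That 0 has an exact upper limit of 1828 CPM, and 3 counts there would be 1487 CPM.

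**Figure D1:**
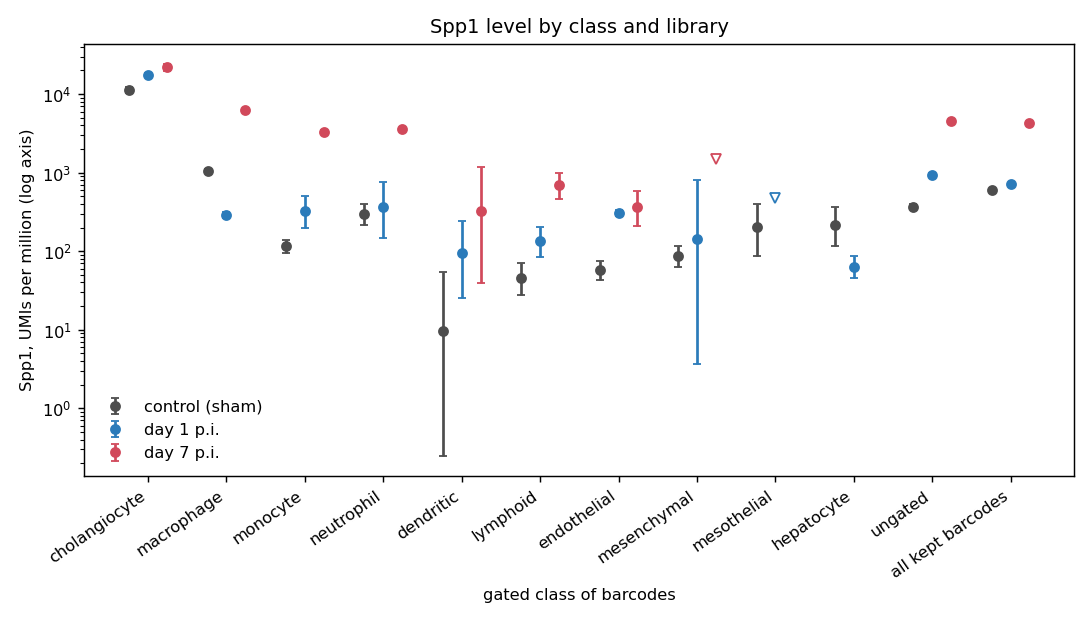
Spp1 in CPM (UMIs of the gene scaled to 1000000 UMIs, log axis) for each gated class of barcodes and for all kept barcodes, in the control, day 1 p.i. and day 7 p.i. libraries. Points are summed levels with exact 95% Poisson intervals and open triangles mark counts of 0, drawn at the level that 3 counts would give. The cholangiocyte gate is highest in each library, and macrophages, monocytes and neutrophils stand between 3328 and 6216 at day 7 p.i.

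Cholangiocyte-gated barcodes were few and nearly all of them held Spp1. The gate took 56 barcodes in the control, 60 at day 1 p.i. and 13 at day 7 p.i., and 53, 57 and 13 of them had a Spp1 UMI. Their median barcode held 8, 13.5 and 19 Spp1 UMIs, at median depths of 846, 931.5 and 1125 UMIs. The summed level was 11285 CPM in the control (10420 to 12202), 17601 CPM at day 1 p.i. (16815 to 18413) and 22105 CPM at day 7 p.i. (19955 to 24424). Relative to the control it was thus 1.56 times as high at day 1 p.i. (1.42 to 1.71) and 1.96 times as high at day 7 p.i. (1.72 to 2.23). The median of the single barcodes was 11806, 15082 and 26316 CPM, and the middle ranges overlapped, running from 6337 to 15309 in the control, from 9918 to 19068 at day 1 p.i. and from 14412 to 33264 at day 7 p.i. The 10 richest barcodes held 44.0%, 63.9% and 95.3% of the gate's Spp1, and without them the levels were 9617, 14793 and 3935 CPM, the last from 3 barcodes. The mitochondrial share of the gate's UMIs was 18.4%, 6.93% and 2.36%, and its part in these ratios was not tested. Of 8 further cholangiocyte genes that the gate did not use, 6, 6 and 4 were at least 2-fold above the remaining barcodes. The secretin receptor Sctr was at 0 in the control and at day 7 p.i., and the chloride channel Cftr was at 0 at day 1 p.i. A list of stomach epithelium genes gave 60 UMIs from 2 genes in the control gate, 7 at day 1 p.i. and 0 at day 7 p.i., and the part of that epithelium in the control level was not tested.

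The distance between cholangiocytes and macrophages varied with the library. The cholangiocyte gate was at 10.6 times the macrophage gate in the control (9.75 to 11.6), at 60.8 times at day 1 p.i. (54.8 to 67.6) and at 3.56 times at day 7 p.i. (3.19 to 3.95). This control ratio was 16.1 without the deepest 5% of barcodes and 6.53 when the class sums were scaled by median-of-ratios size factors, which set the median gene equal, in place of their UMI totals. With those size factors the day 7 p.i. ratio was 1.68.

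Summed over the macrophage gate, Spp1 was lower than in the control at day 1 p.i. and higher at day 7 p.i. It stood at 1061 CPM in the control (1025 to 1098, 3280 UMIs in 3200 barcodes), at 289 CPM at day 1 p.i. (263 to 318, 437 UMIs in 2188 barcodes) and at 6216 CPM at day 7 p.i. (6020 to 6417, 3797 UMIs in 894 barcodes). The day 1 p.i. level was thus 0.273 times that of the control (0.246 to 0.302), the day 7 p.i. level 5.86 times (5.59 to 6.14), and the latter was 21.5 times the former (19.4 to 23.8). At day 1 p.i., 97 of 7717 genes had a lower ratio than Spp1, and at day 7 p.i. 87 of 6729 genes had a higher one. Of 8 macrophage genes that the gate did not use, 8 in the control, 7 at day 1 p.i. and 3 at day 7 p.i. were at least 2-fold above the remaining barcodes, so the day 7 p.i. gate was the least distinct by this check. Without the deepest 5% of barcodes the day 7 p.i. ratio was 9.02. The gate's own make-up differed between the libraries: 1428 of its 3200 barcodes had Kupffer markers in the control, 1620 of 2188 at day 1 p.i. and 152 of 894 at day 7 p.i., and 1076, 53 and 179 held Gpnmb or Trem2. In barcodes without Gpnmb or Trem2, the day 1 p.i. level was not lower than the control's, at 287 CPM (260.4 to 316) against 187 CPM (168 to 208). Mitochondrial UMIs took 15.3%, 18.6% and 3.11% of this gate's UMIs in the control, at day 1 p.i. and at day 7 p.i., and their part in the ratios was not tested beyond leaving mitochondrial and hepatocyte genes out of the totals, which gave 5.12 at day 7 p.i.

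Spp1 was unevenly spread among macrophages. A Spp1 UMI was found in 17.7% of the control barcodes (16.4 to 19.0), in 9.37% at day 1 p.i. (8.18 to 10.7) and in 47.2% at day 7 p.i. (43.9 to 50.5), at median depths of 772, 569 and 561.5 UMIs. In lymphoid-gated barcodes, taken as a class with little Spp1, the share was 3.20%, 6.86% and 15.6%, at median depths of 610, 482 and 440.5. Thinned to 300 UMIs, the macrophage shares were 10.3%, 4.93% and 38.0%, and the lymphoid shares 1.36%, 4.43% and 12.8%. The macrophage share at day 1 p.i. thus lay close to the lymphoid one. Barcodes with 10 or more Spp1 UMIs numbered 77, 10 and 99, and the 10 richest held 27.7%, 40.05% and 26.05% of the gate's Spp1. In the control the richest macrophage barcode held 308 Spp1 UMIs, at day 1 p.i. 35 and at day 7 p.i. 233.

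**Figure D2:**
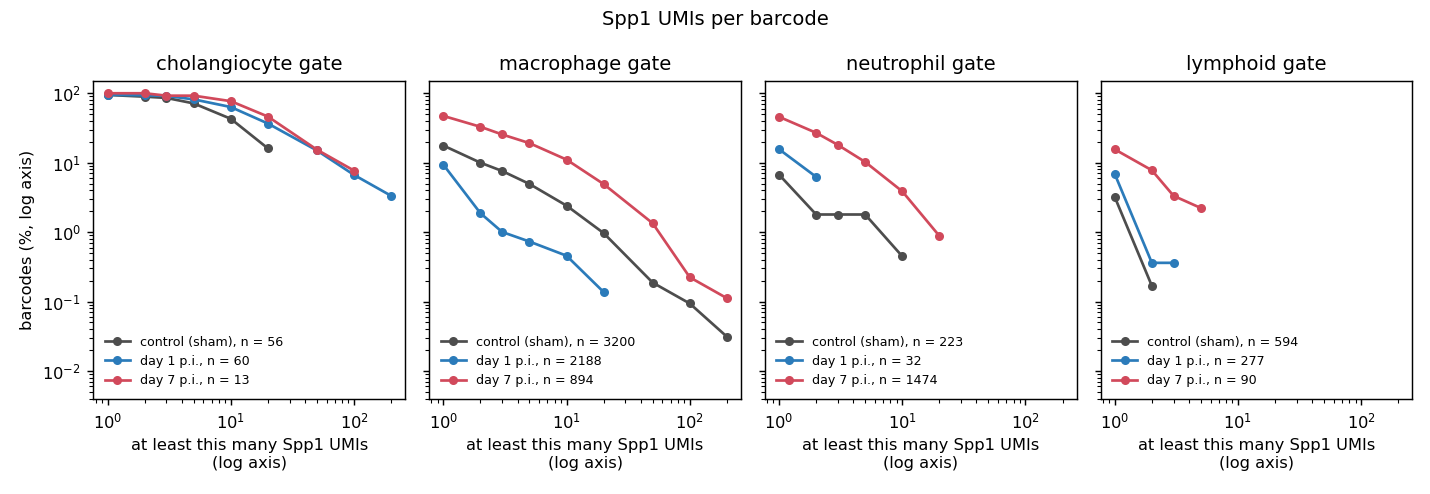
Percent of barcodes (log axis) holding at least a given number of Spp1 UMIs (log axis) in the cholangiocyte, macrophage, neutrophil and lymphoid gates, 1 line per library, with the number of barcodes in each legend. The day 7 p.i. line lies above the others in the macrophage and neutrophil gates, where 47.2% and 45.8% of barcodes hold a UMI.

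Among macrophages, Spp1 was lower where Kupffer markers were found. Kupffer cells, the resident macrophages of the liver sinusoids, were marked by at least 2 of Clec4f, Vsig4, Cd5l, Timd4 and Marco. Barcodes with these markers stood at 539 CPM in the control, 209 at day 1 p.i. and 985 at day 7 p.i. (823 to 1171, 152 barcodes), and those without them at 1567, 616 and 7643 CPM. Few barcodes carried the Kupffer values, as without the 10 richest of each set they were 181, 119 and 174 CPM, against 1222, 224 and 5725 CPM without Kupffer markers. Among day 7 p.i. barcodes, 19.1% of the barcodes with Kupffer markers held a Spp1 UMI against 53.0% of those without. In the control these shares were 8.61% and 24.9%. At day 1 p.i. they were 8.83% (7.49 to 10.3) and 10.9% (8.47 to 13.8), and these intervals overlapped.

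Gpnmb, a lysosomal membrane glycoprotein, and Trem2, a lipid-sensing receptor, mark macrophages that take up lipid and cell debris. In the control, the 1076 barcodes with a UMI of either gene stood at 2268 CPM and the other 2124 at 187 CPM, and the former held 61.0% of all Spp1 of the library. Those shares with a UMI were 38.5% and 7.11%, or 22.6% and 3.98% when thinned. After 1 day of injury, 53 barcodes had Gpnmb or Trem2, at 366 CPM (209 to 595, 16 UMIs) against 287 CPM in the others. At day 7 p.i. the 179 barcodes with either gene stood at 9958 CPM (9460 to 10476) and the 715 others at 4993 CPM, so that Spp1 was also high outside this subset. Barcodes with Kupffer markers but neither gene stood at 86.8 CPM in the control (70.6 to 106), 204 CPM at day 1 p.i. (179 to 231) and 770.1 CPM at day 7 p.i. (607 to 964), or 50.5, 117 and 136 CPM without the 10 richest barcodes of each.

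The wound subset was defined by at least 2 of Ccl2, Ccl7 and Thbs1, which encode a pair of monocyte-attracting chemokines and thrombospondin 1. It took 49 barcodes in the control at 6982 CPM, 98.3% of that from 10 barcodes and 205 CPM without them, 8 at day 1 p.i. at 2306 CPM from 16 UMIs, and 272 at day 7 p.i. at 9097 CPM (8703 to 9503). Barcodes outside it stood at 881, 280.1 and 4583 CPM. At day 7 p.i., barcodes in both the wound and the Gpnmb or Trem2 subset stood at 12354 CPM, and the 406 barcodes in none of the 3 subsets stood at 4762 CPM. Without the 10 richest barcodes of each set, the day 7 p.i. levels were 5404 CPM in both subsets at once, 5821 CPM in the wound subset, 5621 CPM in the Gpnmb or Trem2 subset and 3072 CPM in none.

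**Figure D3:**
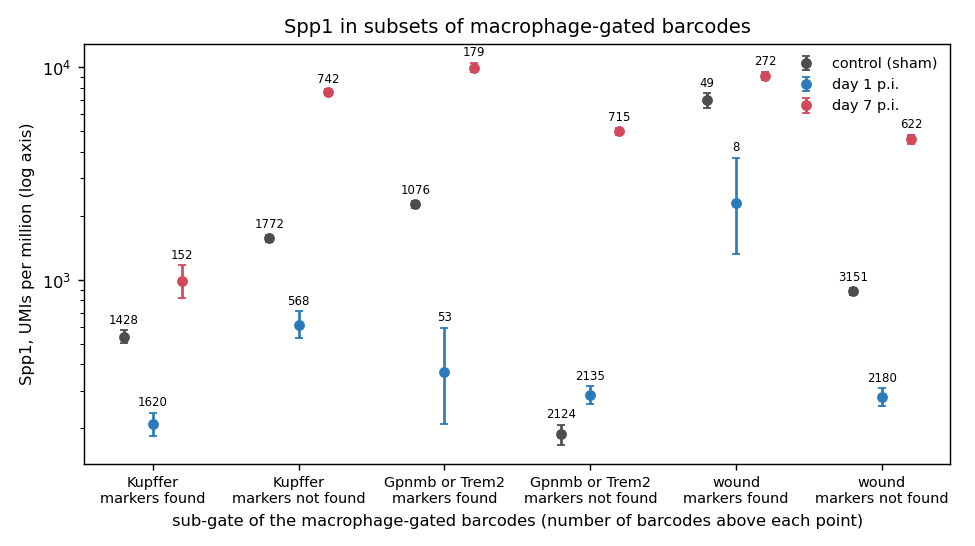
Spp1 in CPM (UMIs of the gene scaled to 1000000 UMIs, log axis) in macrophage-gated barcodes with and without Kupffer, Gpnmb or Trem2, and wound markers, by library, with exact 95% Poisson intervals and the number of barcodes above each point. Barcodes with Kupffer markers are below those without in each library, and the control contrast is widest for Gpnmb or Trem2, at 2268 against 187.

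Macrophage-gated barcodes with 2 or more Spp1 UMIs were next compared with those holding 0, within a library. In the control these were 320 and 2635 barcodes. The 10 genes with the highest ratio were Npy at 26.4 (14.5 to 52.0), Mfge8 at 19.4, Mmp12 at 16.9, Ctsk at 14.5, Ctsl at 13.7, Gpnmb at 13.4, Atp6v0d2 at 10.2, Syngr1 at 9.96, Gadd45a at 9.26 and Fabp5 at 9.02. Several of these serve uptake and breakdown: Mfge8 bridges dying cells to phagocytes, Ctsk and Ctsl are lysosomal cathepsins, Atp6v0d2 is a subunit of the proton pump that acidifies lysosomes, Fabp5 binds fatty acids, and Mmp12 is the macrophage elastase. Npy encodes neuropeptide Y and Gadd45a a stress-induced growth arrest protein. The 10 lowest ratios belonged to Cxcl13 at 0.0315, Ccdc148 at 0.0382, Icos at 0.0432, Cd207 at 0.0444, P2ry13 at 0.0448, Saa3 at 0.0534, Tanc2 at 0.0534, Adrb1 at 0.0567, Fpr1 at 0.0718 and Prg4, which had no UMI in the Spp1 barcodes. Cxcl13, a B cell chemokine, had 3 UMIs against 448, Saa3, an acute phase protein, had 11 against 969, and Prg4, or lubricin, had 0 against 234. Icos is a costimulatory receptor best known in T cells, Cd207 is the lectin langerin, P2ry13 is a receptor for ADP and Fpr1 one for formylated bacterial peptides. All 10 genes at the top stayed there when the sets were drawn at 1 or at 5 UMIs, but 4 and 3 of the 10 at the bottom did. The Spp1 barcodes were deeper, at a median of 1235.5 against 719 UMIs, 32.5% against 16.9% of them held a neutrophil marker, and 4.38% against 1.33% held a cholangiocyte marker. The part of depth and of these markers in the ratios was not tested.

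Lipid-associated macrophage genes accompanied Spp1 in the control. Of the 12 on the list, 11 were at least 2-fold higher with an interval above 1 in the Spp1 barcodes, where 4.77% of 5854 genes were, and the list's median ratio was 5.13 against 0.957 over all genes. Lgals3 (galectin 3) was at 6.14, the tetraspanin Cd63 at 5.24, the lipid droplet protein Plin2 at 5.03, lipoprotein lipase (Lpl) at 4.49 and Trem2 at 4.23, while Apoe was at 1.24. All 8 Kupffer genes were at least 2-fold lower, where 9.77% of genes were, with a median of 0.134, Clec4f at 0.129 and the scavenger receptor Marco at 0.112. Of 7 measured wound genes 1 was lower, the cytokine Il1b at 0.401, and the others did not pass. Among those with fewer than 50 UMIs, which were not counted, Cxcl3 was at 19.8 (7.25 to 67.1, 21 against 5 UMIs) and Vegfa at 6.27 (1.06 to 42.8, 4 against 3 UMIs).

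The day 1 p.i. sets held 41 and 1983 barcodes, and 3.73% of 3946 genes were at least 2-fold higher and 1.57% lower. Of 8 measured lipid-associated genes 1 was higher, Fabp5 at 4.01 (1.94 to 7.47, 11 UMIs), with Ctsl at 1.00 and Apoe at 0.81. Among those with fewer than 50 UMIs, which were not counted, Cd63 was at 19.4 (9.89 to 36.5, 16 against 31 UMIs), Gpnmb at 52.5 (14.4 to 210, 7 against 5 UMIs) and Cd9 at 4.58 (1.41 to 11.6, 5 against 41 UMIs), while Trem2 had 0 against 44 UMIs. Over the measured genes the list's median was 1.11 against 0.944 over all genes. Of the 8 Kupffer genes 3 were lower, Folr2 at 0.428, Clec4f at 0.43 and the iron exporter Slc40a1 at 0.49, with Marco at 1.05 and a median of 0.514. Of 5 measured wound genes Ccl2 was higher at 9.83 and Il1b lower at 0.175. As given further on, 41.5% of these 41 barcodes held a cholangiocyte marker.

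Macrophage sets at day 7 p.i. held 294 and 472 barcodes, with median depths of 667.5 and 518 UMIs. They summed to 229169 and 301381 UMIs, fewer than the 496423 and 2334922 of the control sets, so fewer genes could be compared, and 1.36% of 1769 genes were at least 2-fold higher and 3.34% lower. Of the 12 lipid-associated genes 3 were higher, Fabp5 at 3.41 (2.88 to 4.05), Gpnmb at 2.71 (1.91 to 3.90) and the tetraspanin Cd9 at 2.18, and the list's median was 1.47 against 0.964 over all genes. Of 8 measured wound genes 3 were higher, the chemokines Cxcl3 at 2.34 and Ccl7 at 2.07 and Thbs1 at 2.03, with a median of 1.97. Neutrophil markers were found in 77.2% of the Spp1 barcodes against 63.1% of those with 0, and monocyte markers in 76.2% against 65.3%, and their part in these ratios was not tested. All 7 measured Kupffer genes were lower, with a median of 0.207, Clec4f at 0.214 and the haemoglobin scavenger receptor Cd163 at 0.054. Mmp12, among the highest in the control sets, stood at 0.104 here (0.0489 to 0.198), and Saa3, among the lowest there, at 1.66 (1.34 to 2.06). Whether the ratios differ between the libraries was not tested.

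**Figure D4:**
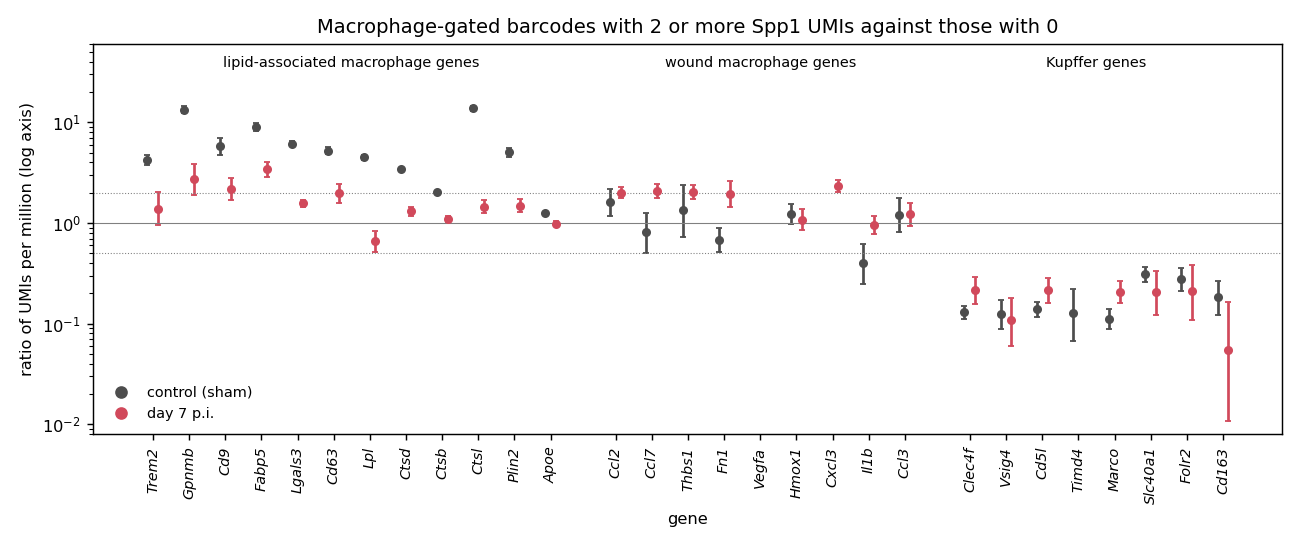
Ratio of CPM (log axis) between macrophage-gated barcodes with 2 or more Spp1 UMIs and those with 0, for lipid-associated, wound and Kupffer genes, in the control and day 7 p.i. libraries, with 95% intervals. Kupffer genes lie below 1 in both libraries, with medians of 0.134 and 0.207, and lipid-associated genes have a median of 5.13 in the control and 1.47 at day 7 p.i.

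The same lists were followed over time in the whole macrophage gate. At day 1 p.i., when Spp1 was at 0.273 times its control level, 10 of the 12 lipid-associated genes were at least 2-fold lower and none higher, where 4.2% of 7717 genes were lower and 7.93% higher. Their median ratio was 0.263 against 1.00 over all genes, with Gpnmb at 0.009 (0.00479 to 0.0154), Cd63 at 0.0435, Trem2 at 0.0698, Fabp5 at 0.102 and Ctsl at 0.285. Cathepsin B (Ctsb) at 0.851 and Apoe at 0.709 did not pass. Of 8 Kupffer genes 4 were higher, Vsig4 at 3.17, the folate receptor Folr2 at 2.66, Clec4f at 2.25 and Cd163 at 2.07. Of 7 measured wound genes 4 were lower. Hepatocyte transcripts took 1.37% of this gate's UMIs at day 1 p.i. and 0.0912% in the control, and their part in these ratios was not tested.

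At day 7 p.i., when Spp1 was at 5.86 times its control level in macrophages, all 9 wound genes were at least 2-fold higher, where 8.59% of 6729 genes were, with a median of 18.9 against 1.01. Cxcl3 was at 205, Thbs1 at 49.0, Ccl2 at 23.5, the angiogenic factor Vegfa at 19.3 and Il1b at 7.12. Neutrophil markers moved with these genes, taking 0.236% of the macrophage gate's UMIs at day 7 p.i. and 0.0332% in the control, and all 10 but Ltf were detected there at day 7 p.i. The neutrophil gate at day 7 p.i. held more Cxcl3 (3495 against 1724 CPM), Il1b (3360 against 758 CPM) and Thbs1 (2191 against 1236 CPM) than the macrophage gate, and less Ccl2 (700.1 against 1987 CPM). The part of neutrophil transcripts in the wound gene ratios was not tested. Of the 8 Kupffer genes 6 were lower, where 10.5% of genes were, with a median of 0.432. The lipid-associated genes divided: Cd9 at 3.43, Plin2 at 2.35 and Lgals3 at 2.29 were higher, and Trem2 at 0.470, Apoe at 0.413, Lpl at 0.392 and Gpnmb at 0.270 were lower. Spp1 and Gpnmb therefore stood on the same side of the control at day 1 p.i. and on opposite sides at day 7 p.i.

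Barcodes richest in Spp1 differed in class between the libraries. Those with 20 or more Spp1 UMIs numbered 45 in the control, of which 31 were macrophage-gated, 9 cholangiocyte-gated, 4 in no class and 1 monocyte-gated. The day 1 p.i. library had 35, of which 22 were cholangiocyte-gated, 7 in no class, 3 macrophage-gated and 3 endothelial-gated, and 34 of the 35 held a cholangiocyte marker. The day 7 p.i. library had 122, of which 44 were macrophage-gated, 34 in no class, 25 monocyte-gated, 13 neutrophil-gated and 6 cholangiocyte-gated, and 7 held a cholangiocyte marker. The macrophage-gated ones at day 7 p.i. gave a median 4.18% of their UMIs to Spp1, against 1.21% in the control. In the day 1 p.i. macrophage gate, 41.5% of barcodes with 2 or more Spp1 UMIs held a cholangiocyte marker against 3.23% of those with 0, and without every barcode holding such a marker the day 1 p.i. ratio was 0.183. In the endothelial gate, Spp1 was at 5.33 times the control at day 1 p.i. (4.05 to 7.15, 686 UMIs in 3706 barcodes), and 36.6% of its 71 barcodes with 2 or more Spp1 UMIs held a cholangiocyte marker against 3.11% of those with 0.

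Neutrophil-gated and monocyte-gated barcodes held little Spp1 in the control and much at day 7 p.i. The neutrophil gate had 44 Spp1 UMIs in 223 control barcodes (297 CPM, 216 to 399), 7 in 32 barcodes at day 1 p.i. (366 CPM, 147 to 755) and 2586 in 1474 barcodes at day 7 p.i. (3599 CPM, 3462 to 3741). A UMI was found in 6.73%, 15.6% and 45.8% of these barcodes. The day 7 p.i. ratio to the control was 12.1 (8.99 to 16.7), with 44 of 2301 genes higher and the median gene at 1.39. The control value rested on few barcodes, as 10 of them held 88.6% of its Spp1, and the ratio was 86.9 without the 10 richest of each library and 6.48 among barcodes with at least 400 genes. At day 1 p.i. the ratio was 1.23 (0.468 to 2.76), which the depth could not tell from 1. The monocyte gate stood at 115 CPM in the control (94.2 to 139) and at 327 CPM (197 to 511) after 1 day, and its 3328 CPM at day 7 p.i. was 28.9 times the control level (23.9 to 35.4). The control value rested on few barcodes here too, as 10 of them held 64.5% of it, and without the 10 richest the levels were 41.2 CPM in the control and 2872 CPM at day 7 p.i. Among monocyte-gated barcodes with 0 Spp1 UMIs, neutrophil markers were found in 20.04% in the control and 58.4% at day 7 p.i. and macrophage markers in 49.6% and 66.7%, and among those with Spp1 in 22.9% and 66.3% and in 54.2% and 69.5%. All 8 macrophage check genes stood above Spp1 in this gate at day 7 p.i., relative to the whole library, where Spp1 was at 77.2%. The part of these cells in the ratio was not tested.

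Macrophage transcripts were also present in neutrophil-gated barcodes at day 7 p.i. The gate's Spp1 level was 83.4% of that of the whole library. Of 8 macrophage genes outside the gating lists, 2 were above that share, Fcer1g at 92.5% and Cd14 at 181%, and the others ran down to Aif1 at 34.9%, with Lyz2 at 44.7%, Ctss at 43.6% and Apoe at 39.4%. Cd14 was above the library level in the neutrophil gate also in the control (152%) and at day 1 p.i. (1073%, 13 UMIs). Fcer1g was there at 100% and 183%, so these 2 genes did not set macrophages apart from neutrophils. Among the 478 neutrophil-gated barcodes with no macrophage or monocyte marker, Spp1 stood at 3343 CPM (3100 to 3601) and 41.2% held a UMI, against 4341 CPM and 55.3% in the 526 with a macrophage marker. In the control, the 71 neutrophil-gated barcodes without such markers stood at 235 CPM from 10 UMIs.

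Lymphoid-gated barcodes held little Spp1. Activated T and natural killer cells are known to make osteopontin too, so this is a class of low level and not one without the transcript. These barcodes held 20, 21 and 30 UMIs in 594, 277 and 90 barcodes, or 45.5 CPM (27.8 to 70.3), 134 CPM (83.2 to 205) and 689 CPM (465 to 983) in the control, at day 1 p.i. and at day 7 p.i. This was 7.55% of the level of the whole library in the control and 16.0% at day 7 p.i., below each of 8 macrophage genes, which ran from 12.7% to 35.9% in the control and from 19.2% to 43.9% at day 7 p.i. The ratio of day 7 p.i. to the control was 15.1 (8.32 to 28.1). Among barcodes with at least 400 genes it was 3.21 from 3 against 16 UMIs, with an interval of 0.599 to 11.2 that includes 1, and without the 10 richest barcodes of each library it was 4.94 (1.11 to 17.7). Of the 14 lymphoid-gated barcodes with Spp1 at day 7 p.i., 85.7% held a monocyte marker against 63.2% of those without Spp1, and the 26 lymphoid-gated barcodes with no macrophage or monocyte marker held 1 Spp1 UMI. Macrophages exceeded the lymphoid gate 23.3-fold in the control (15.1 to 38.2), 2.15-fold at day 1 p.i. (1.39 to 3.51) and 9.03-fold at day 7 p.i. (6.31 to 13.4). Neutrophils exceeded it 6.53-fold in the control (3.77 to 11.7) and 5.23-fold at day 7 p.i. (3.65 to 7.76). At day 1 p.i. that ratio was 2.72, with an interval of 0.978 to 6.65 that includes 1.

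The Spp1 of each library lay in different classes. Macrophage-gated barcodes held 67.9% of it in the control, 10.1% at day 1 p.i. and 28.8% at day 7 p.i., and 38.6%, 24.7% and 19.97% of all UMIs. Cholangiocyte-gated barcodes held 13.02%, 43.4% and 2.93% of Spp1 with 0.696%, 1.75% and 0.571% of all UMIs. At day 1 p.i. the endothelial gate held 15.8% of Spp1, and at day 7 p.i. the monocyte gate held 20.4% and the neutrophil gate 19.6%. Barcodes in no class held 13.1%, 28.6% and 27.9%. The control's class levels weighted by the day 7 p.i. make-up came to 475 CPM. The day 7 p.i. class levels weighted by the control's make-up came to 4120 CPM, with 2 classes that had no day 7 p.i. barcodes left out. This weighting takes no account of make-up within a class, such as the share of Kupffer barcodes among macrophages, or within the barcodes in no class.

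**Figure D5:**
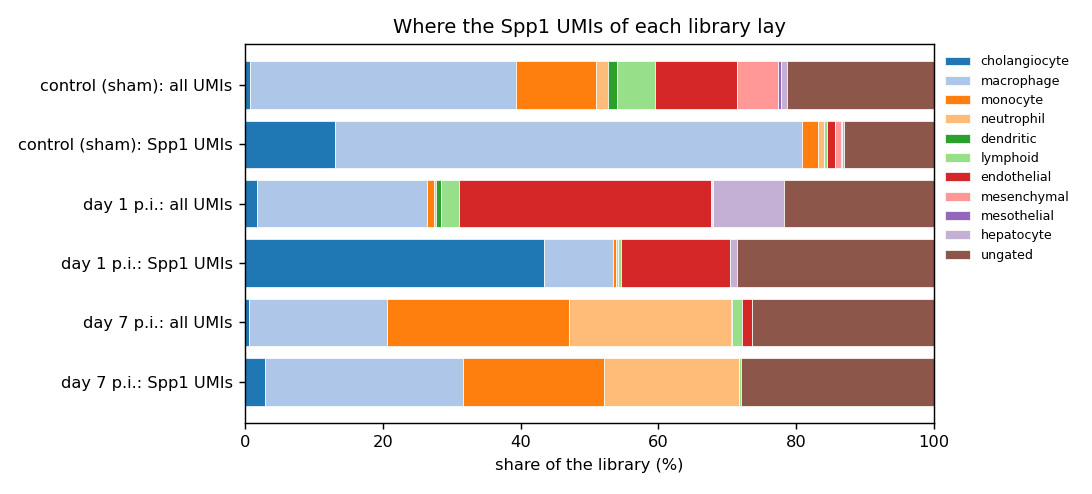
Share of all UMIs and of Spp1 UMIs (%) held by each gated class in the control, day 1 p.i. and day 7 p.i. libraries, as stacked bars that start at 0. Macrophages hold 67.9% of Spp1 in the control, cholangiocytes 43.4% at day 1 p.i., and at day 7 p.i. macrophages, monocytes and neutrophils hold 28.8%, 20.4% and 19.6%.

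Receptors for osteopontin were followed by a list of 10 genes, of which 9 had enough UMIs over all kept barcodes. Between day 7 p.i. and the control, 1 was at least 2-fold higher and 3 were lower, where 8.79% of 10227 genes were higher and 21.7% lower. The higher gene was Cd44, the hyaluronan receptor, at 701 CPM against 224 CPM, a ratio of 3.12 (2.93 to 3.33). The integrin subunits Itgb3 at 0.289, Itga9 at 0.208 and Itga8 at 0.0507 were lower. The endothelial gate took 1452 barcodes in the control and 75 at day 7 p.i., and the mesenchymal gate 449 and 4. The part of these shifts between classes in the receptor ratios was not tested. Within the macrophage gate Cd44 was at 1.51 times the control (1.32 to 1.72) and Itga9 at 0.412. None of 6 measured receptor genes there was at least 2-fold higher and 1 was lower, where 8.59% and 10.5% of genes were. In the neutrophil gate, with 223 barcodes in the control and 1474 at day 7 p.i., Cd44 was at 2.85 (2.14 to 3.87). Of 3 receptor genes measured in that gate, Cd44 was the 1 higher and Itga4 the 1 lower, at 0.423 (0.239 to 0.775). The median of 2301 genes in that gate was 1.39, and the share of all genes that passed was not counted. Within the control macrophage sets, Itga9 at 0.323 was the only receptor gene of 6 that differed 2-fold between Spp1 barcodes and those with 0, where 4.77% of genes were higher and 9.77% lower.

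Genes for enzymes that cleave or modify osteopontin also differed at day 7 p.i. Over all kept barcodes, where 8.79% of genes were higher and 21.7% lower, 3 of 8 measured genes were higher, the metalloproteinases Mmp9 at 13.6 and Mmp7 at 2.62 and the transglutaminase Tgm2 at 3.98, and 3 were lower, the thrombin gene F2, Mmp2 and Mmp12 at 0.335. The Mmp7 ratio (1.51 to 4.54) rested on 29 UMIs in each library, set against different UMI totals. In macrophages Mmp9 was at 11.1, Tgm2 at 2.30 and Mmp12 at 0.391. Mmp9 was one of the gating markers of neutrophils. F2 is a hepatocyte gene, and hepatocyte transcripts took 0.197% of UMIs in the control and 0.0417% at day 7 p.i. Mmp2, known from mesenchymal cells, had 350 UMIs in the control and 0 at day 7 p.i., when the mesenchymal gate held 4 barcodes against 449. The part of these cells in the ratios was not tested. Fam20c, the kinase that phosphorylates secreted proteins, was at 4.79 in the control macrophages with Spp1 against those without, and at 0.177 in the whole gate at day 1 p.i. relative to the control. The 4 other members of osteopontin's protein family on the list were not among the genes counted.

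The transcription factors known to act at the Spp1 promoter were followed beside the motifs shown above. Over all kept barcodes at day 7 p.i., 3 of 6 were at least 2-fold higher (8.79% of all genes were), the vitamin D receptor Vdr at 6.78, Jun at 2.57 and Fos at 2.49, and Ets1 was lower at 0.362 (21.7% of all genes were lower). Runx1 was at 1.54 and Runx2 at 1.49. The endothelial gate took 1452 barcodes in the control and 75 at day 7 p.i., and the lymphoid gate 594 and 90. The part of these classes in the Ets1 ratio was not tested. In macrophages Jun was at 2.31 and Fos at 2.03 at day 7 p.i., and Ets1 was at 3.31 at day 1 p.i. In the neutrophil gate at day 7 p.i., where the median gene stood at 1.39, 2 of 3 measured factors were higher. Runx1 was at 7.93 (2.12 to 66.7, 77 against 2 UMIs). Jun was at 3.03 in that gate (2.22 to 4.23), and Fos at 1.71 did not pass. Ets1 was lower in the control macrophages with Spp1 than in those without, at 0.411, and higher in the day 1 p.i. ones, at 2.22 (1.05 to 4.18, 10 UMIs).

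The genes whose levels ran most like Spp1 over the classes and libraries were sought over 20 class sums of at least 50 barcodes, on log2(CPM + 10) and among 11096 genes. These sums share libraries and depth, so the correlations are a description. The 10 highest Pearson coefficients were those of Gm2382 at 0.83, Map2k1 at 0.81, Frrs1 at 0.80, Vegfa and Atp6v1e1 at 0.78, Inhba, H3f3b and Lasp1 at 0.77, and Usb1 and Eepd1 at 0.76. Map2k1 encodes the kinase MEK1, Atp6v1e1 another proton pump subunit, Inhba a subunit of activin, H3f3b a histone and Lasp1 an actin-binding protein. Of these 10 genes, 6 were among the 10 highest with a pseudocount of 1 and 5 with a pseudocount of 100. Some of the profiles rested on few UMIs. Usb1 had 179, Eepd1 196 and Inhba 267 UMIs over the 20 sums. In the control cholangiocyte sum they had 2, 4 and 5 UMIs, and in the control dendritic sum each had 0.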

How the data were processed

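Per the labels and file headers, the authors deposited 1 table of UMI counts per gene and barcode for each of 3 Drop-seq libraries, made with the Drop-seq DigitalExpression tool from sense-strand reads over coding and UTR sequence with a mapping quality of at least 10 and barcodes and UMIs merged at an edit distance of 1. The submitters' processing notes name STAR 2.5.2a and the human build hg19, although the samples are mouse, so no coordinates of counted genes are given. The labels state cDNA of an estimated 1000 cells per library. The headers name a minimum of 200 genes per barcode, but the tables hold barcodes below it, which were left out of the main values here.

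Counts were used as deposited, and levels were scaled to UMI totals as CPM, with no other normalization of the main values. Total counts of kept barcodes were 8013800, 6107866 and 3058967 in the control, day 1 p.i. and day 7 p.i. libraries. A barcode was hepatocyte-gated if hepatocyte genes took at least 10% of its UMIs, and otherwise went to the class with most detected markers, at least 2 and more than any other class. No doublet caller was run, and leaving out the deepest 5% of barcodes was tried in its place. Sums have exact Poisson, shares exact binomial (Clopper-Pearson) and ratios conditional binomial 95% intervals. A sum of 0 was bounded at 3 counts. With 1 library per condition no test was made. A gene counted as higher or lower at a ratio of at least 2 either way with an interval excluding 1, among genes with at least 50 UMIs in the pair. Named genes were Spp1, the listed pathway genes, the 10 most like Spp1 and the 10 highest and lowest between macrophage barcodes with 2 or more and 0 Spp1 UMIs. The gene and the lists were chosen with earlier results of these data known. An item withheld from the wound macrophage lists is not reported here, and the wound subset and counts were computed without it. Promoters came from RefSeq (GRCm38.p6), where Spp1 had 2 entries and the first was used. Alternatives were other minimums of genes, markers and UMIs, thinning to 300 UMIs, size factors, other pseudocounts and leaving out barcodes. Python 3.11.15, numpy 2.4.6, scipy 1.17.1 and pandas 2.3.3 were used, and the ratio script was tested on simulated data.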

Additional observations from a re-analysis of the deposited data

Results flagged for a closer look

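Barcodes with fewer than 200 genes, which entered no comparison, also held Spp1, at 133 CPM in the control, 245 CPM at day 1 p.i. and 3067 CPM at day 7 p.i. Both injury libraries were above the control there. In macrophage-gated barcodes, the ratio to the control was 0.273 at day 1 p.i. and 5.86 at day 7 p.i., that is, in opposite directions with 1 library each, and the difference between these changes was not tested.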

How the results depend on the processing

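No paired analysis was possible because each condition had 1 library. Of 74 alternative values of the Spp1 ratios, 35 stayed within the interval of the reported value, 38 moved beyond it and 1 reversed. The cause was not tested. Among the shares of all genes past 2-fold, with genes of at least 200 UMIs, the share lower over all kept barcodes at day 7 p.i. was 13.7% in place of 21.7%, and the share higher in day 1 p.i. macrophages 4.68% in place of 7.93%. Leaving out the 10 barcodes richest in Spp1, also from the subsets, barcodes with sequences found in another library or barcodes with cholangiocyte markers, and joining monocytes to macrophages, were chosen after seeing the data. The same holds for leaving neutrophil-gated barcodes with macrophage or monocyte markers out, which gave a day 7 p.i. ratio of 14.2 (7.67 to 29.7). Over all kept barcodes, the day 1 p.i. ratio to the control (1.18) was 1.28 at a minimum of 400 genes, 1.00 without the deepest barcodes, 1.25 without mitochondrial and hepatocyte genes, 1.11 with median-of-ratios size factors, 1.04 when thinned, 0.963 (reversed) without the 10 richest barcodes and 1.01 without shared sequences. The day 7 p.i. ratio (7.16) was 7.66 at a minimum of 100 genes and 5.60 at 400, 9.77 without the deepest, 5.92 without mitochondrial and hepatocyte genes, 8.41 with size factors, 9.58 thinned, 8.03 without the richest and 8.22 without shared sequences. In macrophages the day 1 p.i. ratio (0.273) was 0.231 at 400 genes, 0.202 with at least 3 markers, 0.385 without the deepest, 0.381 thinned, 0.224 without the richest, 0.328 without shared sequences and 0.183 without cholangiocyte markers. The day 7 p.i. ratio (5.86) was 5.25 at 400 genes, 5.18 with 3 markers, 9.02 without the deepest, 5.12 without mitochondrial and hepatocyte genes, 8.14 thinned, 7.26 without shared sequences and 5.43 with monocytes joined. The neutrophil ratio at day 7 p.i. (12.1) was 6.48 at 400 genes and 86.9 without the richest barcodes, and the lymphoid ratio (15.1) was 3.21, with an interval that includes 1, and 4.94. The cholangiocyte to macrophage ratio of the control (10.6) was 9.19 at 400 genes, 16.1 without the deepest, 6.53 with size factors and 15.8 thinned, and that of day 7 p.i. (3.56) was 4.99 without the deepest and 1.68 with size factors. The 56, 60 and 13 cholangiocyte-gated barcodes and the 32 neutrophil-gated barcodes at day 1 p.i. limit what depth can show in those classes.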
